A study of Homo sapiens with 12 samples.

Results

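The genes described here encode the machinery that carries peptides into the endoplasmic reticulum and fits them onto MHC class I molecules. They are TAP1, TAP2, TAPBP, TAPBPL, ERAP1, ERAP2, CALR, CANX and PDIA3, 9 of the 56508 gene symbols of the deposited table, found by their symbols. Levels are TPM, a transcript abundance measured per length, as rescaled between libraries before deposit. A gene was tested if its level reached 1 in at least 3 of the 12 libraries, which kept 15456 genes and 8 of the 9, ERAP2 being the exception.

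Messenger RNA was sequenced from H211 and H82, established human small cell lung cancer lines whose genotype is labelled WT, to ask what inhibiting the histone demethylase LSD1 changes. The 4 groups of 3 libraries were H211 with ORY-1001, an LSD1 inhibitor, at 1 µM (H211-ORY), H211 with vehicle, labelled PBS (H211-Ctrl), H82 with ORY-1001 at 1 µM (H82-ORY) and H82 with vehicle (H82-Ctrl). The sample labels give 7 days of treatment and the treatment protocol gives 10 days, and nothing in the labels decides between these. Whether the 3 libraries of a group are separate cultures is not labelled, so the p-values reflect the spread between these libraries only, which may be technical. In bulk RNA, fewer cells carrying a transcript and less of it per cell cannot be told apart.

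TAP1 and TAP2 form the ATP-driven transporter that moves peptides from the cytosol into the endoplasmic reticulum. There, tapasin (TAPBP) bridges the transporter to an empty class I molecule, its relative TAPBPR (TAPBPL) edits the bound peptide outside that complex, and the aminopeptidases ERAP1 and ERAP2 trim peptides to a fitting length. Calnexin (CANX) and calreticulin (CALR) are lectin chaperones of newly made glycoproteins, and ERp57 (PDIA3) is a disulphide isomerase that works with them. The transporter and tapasin genes are known as interferon-inducible, and the chaperones serve glycoprotein folding in general. Small cell lung cancer is known for low class I antigen presentation.

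TAP1, TAP2 and TAPBP lie in the MHC region of chromosome 6, and the other 6 genes lie on 4 other chromosomes. On GRCh38, GENCODE release 29 places TAP1 at chr6:32845209-32853978 and TAP2 at chr6:32821833-32838780, with the immunoproteasome gene PSMB8 at chr6:32840717-32844703 between them. TAPBP lies at chr6:33299694-33314387. TAPBPL is on chromosome 12, ERAP1, ERAP2 and CANX on chromosome 5, CALR on chromosome 19 and PDIA3 on chromosome 15.

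The promoters of 5 genes are shown because they hold the letters of known sites, those of interferon regulatory factors in the transporter and tapasin genes and that of endoplasmic reticulum stress in the lectin chaperones. Each is the 250 bases before a start site of the gene in RefSeq (GRCh38.p14), read on the gene's strand. GENCODE starts all 5 gene models upstream of the RefSeq site used, so each window lies at least partly inside its gene model. They are chr6:32853705-32853954 for TAP1, chr6:32838740-32838989 for TAP2 and chr6:33314079-33314328 for TAPBP, all on the minus strand, and chr19:12938359-12938608 for CALR and chr5:179698679-179698928 for CANX, both on the plus strand. Capitals in the 3 sequences from chromosome 6 mark GAAANNGAA, the core of interferon regulatory factor sites, and the kappa-B consensus. Capitals in CALR and CANX mark CCAAT followed after 9 bases by CCACG, the form of the endoplasmic reticulum stress element.
TAP1: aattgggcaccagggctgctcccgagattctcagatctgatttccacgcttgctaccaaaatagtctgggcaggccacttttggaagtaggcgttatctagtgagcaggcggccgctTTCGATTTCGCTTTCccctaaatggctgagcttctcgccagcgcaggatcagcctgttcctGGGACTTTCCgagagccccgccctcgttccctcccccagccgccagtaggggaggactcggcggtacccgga
TAP2: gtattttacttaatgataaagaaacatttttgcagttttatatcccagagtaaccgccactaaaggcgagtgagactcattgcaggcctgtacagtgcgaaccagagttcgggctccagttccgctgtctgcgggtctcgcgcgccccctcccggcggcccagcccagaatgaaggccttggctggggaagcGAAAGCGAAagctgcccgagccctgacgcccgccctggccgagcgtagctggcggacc
TAPBP: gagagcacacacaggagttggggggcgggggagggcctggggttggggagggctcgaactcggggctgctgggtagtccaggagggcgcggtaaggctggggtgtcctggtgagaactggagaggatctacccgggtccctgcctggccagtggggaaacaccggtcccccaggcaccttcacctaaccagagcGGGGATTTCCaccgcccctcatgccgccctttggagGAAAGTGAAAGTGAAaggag
CALR: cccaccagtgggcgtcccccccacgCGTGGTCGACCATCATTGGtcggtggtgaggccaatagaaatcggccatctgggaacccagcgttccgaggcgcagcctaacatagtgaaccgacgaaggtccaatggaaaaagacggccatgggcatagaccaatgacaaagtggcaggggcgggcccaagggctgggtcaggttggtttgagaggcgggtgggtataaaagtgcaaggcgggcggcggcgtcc
CANX: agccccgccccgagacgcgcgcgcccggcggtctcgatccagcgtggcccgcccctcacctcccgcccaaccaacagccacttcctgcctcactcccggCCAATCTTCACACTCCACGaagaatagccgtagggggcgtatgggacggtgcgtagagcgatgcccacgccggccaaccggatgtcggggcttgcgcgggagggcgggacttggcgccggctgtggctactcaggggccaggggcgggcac

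Both strands were searched. TAP1 held 2 overlapping GAAANNGAA matches 118 to 133 bases before the start and a kappa-B match at 62 to 72 bases. The second RefSeq window of TAP1, not shown, held neither. TAP2 held 1 GAAANNGAA match, at 49 to 58 bases, and no kappa-B match in this window. In TAPBP the 2 overlapping GAAANNGAA matches ended 5 bases from the start, with a kappa-B match at 46 to 56 bases. Of 23536 RefSeq windows of the same length, 6.26% held GAAANNGAA and 10.9% held the kappa-B consensus. Among the other members, GAAANNGAA occurred in 1 of the 2 windows of ERAP2. The kappa-B consensus occurred in 1 of 2 windows each of TAPBPL and ERAP1 and 1 of 4 of CANX. The immunoproteasome genes PSMB8 and PSMB9, also searched, held neither in any window. CCAAT followed after 9 bases by CCACG stood 206 to 225 bases before the start in CALR and 132 to 151 bases before it in CANX, and in 1 further overlapping window of CANX. It occurred in 23 of the 23536 windows, 0.0977%. The STAT-type letters TTCNNNGAA, in 6.10% of windows, occurred in the second window of TAP1 and in no window of the other members. The GC box GGGCGG, in 51.0% of windows, was present in all 5 windows shown, and CCAAT, in 32.7% of windows, in those of TAP1, CALR and CANX. A match describes letters only.

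KDM1A, which encodes LSD1, was at 188 ± 4.68 in H211-ORY and 185 ± 2.57 in H211-Ctrl, and at 190 ± 8.17 in H82-ORY and 184 ± 2.43 in H82-Ctrl (SD, n = 3 each), with adjusted p = 0.663 in H211 and 0.354 in H82. ORY-1001 inhibits the enzyme, so the transcript does not check the treatment. The read depth is unknown, since the values are rescaled TPM. NEUROD1, a neuronal factor, marked H82 (122.9 to 139) and the tuft-cell factor POU2F3 marked H211 (246 to 285). Blood transcripts differed between libraries of a group. The sum of 14 myeloid markers was 2.30, 3.27 and 40.1 in H211-ORY libraries 1, 2 and 3, 32.3, 163 and 3.59 in H211-Ctrl, 38.8, 44.4 and 33.1 in H82-ORY, and 1.67, 2.41 and 1.63 in H82-Ctrl. The sum of 10 erythroid markers was 46.9, 36.0 and 0.306 in H211-ORY, 110.3, 96.9 and 41.9 in H211-Ctrl, 1.85, 1.91 and 118 in H82-ORY, and 49.6, 56.8 and 42.0 in H82-Ctrl. Results are therefore also given without the 4 libraries that stood apart within their group, H211-ORY 3, H211-Ctrl 1 and 2 and H82-ORY 3. That choice was made after seeing the data and leaves 1 library in H211-Ctrl, assumed to vary like the others. In H82 it does not even out the myeloid sums, which remain 38.8 and 44.4 in H82-ORY against 1.63 to 2.41 in H82-Ctrl.

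With ORY-1001 the transporter, tapasin and TAPBPR transcripts rose in both lines, ERAP1 rose in H211 and passed the test narrowly in H82, and calreticulin and ERp57 did not pass the test in either. In H211, 5 of the 8 tested members were higher in treated cultures and 0 were lower (1 at an unadjusted p under 0.05, CANX), where 8.95% of all genes were called higher and 9.61% lower. With each library rescaled to the same total, the genes called in H211 split into 950 higher and 1753 lower, 35.2% higher in place of 48.2%, and the 8 members gave the same counts. In H82, 5 of the 8 members were higher and 1, CANX, was lower, against 19.1% of all genes called higher and 23.9% lower. The count of 5 in H82 includes ERAP1, whose call held in 10 of 24 alternatives and in 3 of the 12 that leave out 1 library. Median log2 fold changes were 1.04 over the 8 members in H211, where the median of all genes was -0.0021, and 0.50 in H82, where it was -0.016. Calls rest on limma with Benjamini-Hochberg adjustment over all 15456 genes at an adjusted p under 0.05, and log2 fold changes are of the level plus 1, which understates the change of low genes.

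**Figure D1:**
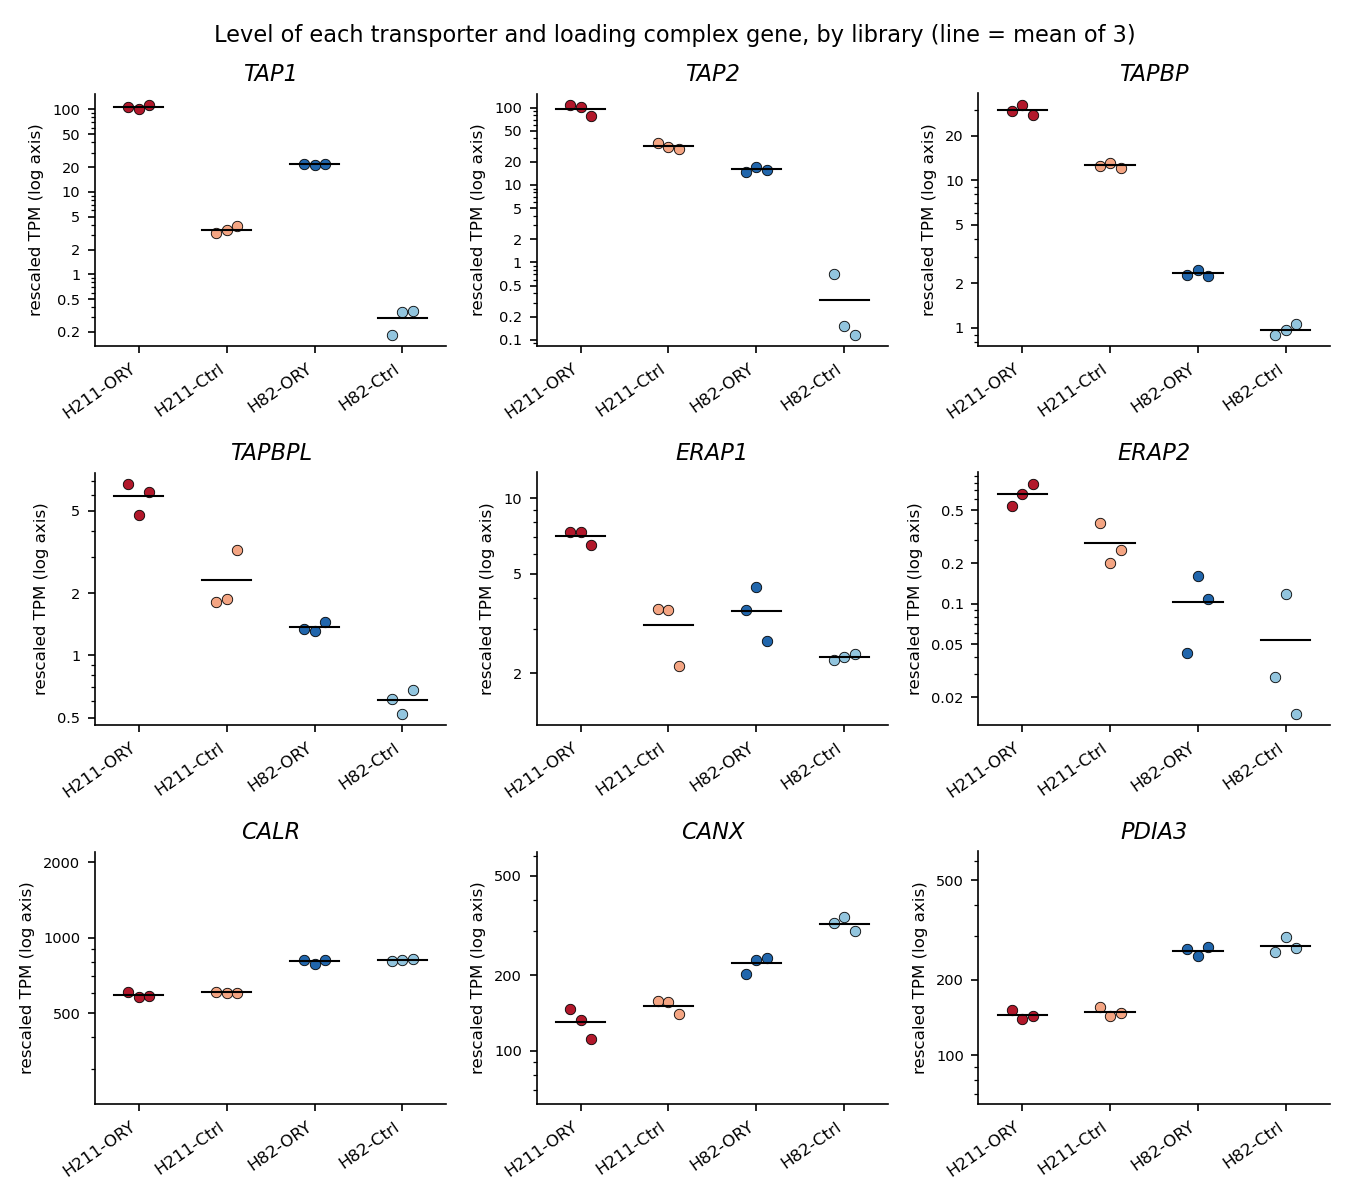
Level of each of the 9 genes in every library, in rescaled TPM on log axes, with points for libraries and lines for the means of 3. TAP1 and TAP2 span the widest range, and CALR, CANX and PDIA3 are the only members above 100 in every group.

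TAP1, a transporter subunit, had levels of 106, 102 and 113 in H211-ORY libraries 1, 2 and 3, against 3.16, 3.42 and 3.88 in H211-Ctrl. In H82 it had 21.9, 21.4 and 22.1 in H82-ORY, against 0.185, 0.349 and 0.355 in H82-Ctrl. No library of any group overlapped another group, and the order of levels was H211-ORY, H82-ORY, H211-Ctrl and H82-Ctrl, so that treated H82 cultures carried more TAP1 transcript than untreated H211 cultures. The log2 fold change was 4.59 in H211 (SE 0.079, adjusted p = 2.60e-11, 30.7-fold between means) and 4.14 in H82 (SE 0.079, adjusted p = 1.65e-10, 73.6-fold). These placed TAP1 as the gene with rank 4 by log2 rise among 15456 in H211 and rank 1 in H82. TAP1 was called higher in both lines under all 24 alternatives, at log2 fold changes of 3.72 to 4.91 in H211 and 2.34 to 5.82 in H82.

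TAP2, its partner subunit, had levels of 108, 102 and 78.2 in H211-ORY, against 35.2, 30.7 and 29.3 in H211-Ctrl. In H82 it had 14.9, 17.2 and 15.8 in H82-ORY, against 0.702, 0.152 and 0.116 in H82-Ctrl. The groups did not overlap, but the order differed from that of TAP1: untreated H211 cultures held more TAP2 transcript than treated H82 cultures. The log2 fold change was 1.56 in H211 (SE 0.16, adjusted p = 6.29e-05, 3.03-fold) and 3.71 in H82 (SE 0.16, adjusted p = 3.92e-08, 49.4-fold), rank 73 in H211 and rank 2 in H82. Of the H82-Ctrl levels, all under 1, the one in library 1 was several times the others, which makes the linear fold in H82 less certain than the call. Without H82-Ctrl library 1 or any other single library, TAP2 in H82 kept log2 fold changes of 3.60 to 3.90.

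The balance of the subunit transcripts moved with the drug in H211. The level of TAP1 divided by that of TAP2 was 0.984, 1.00 and 1.45 in H211-ORY, against 0.0899, 0.111 and 0.132 in H211-Ctrl. It was 1.46, 1.24 and 1.40 in H82-ORY, against 0.263, 2.29 and 3.05 in H82-Ctrl. Untreated H211 cultures thus held several times more TAP2 than TAP1 transcript and treated cultures of both lines held about equal amounts, while the ratio in H82-Ctrl rested on levels under 1 and surrounded that in H82-ORY. The difference in mean log2 ratio was 3.36 in H211, with no overlap, and 0.16 in H82. An exact two-sided permutation test gave p = 0.1 in H211, the smallest that 3 against 3 libraries allow, and p = 1 in H82, or 0.133 and 1 after Benjamini-Hochberg adjustment over the 8 ratio tests made.

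**Figure D2:**
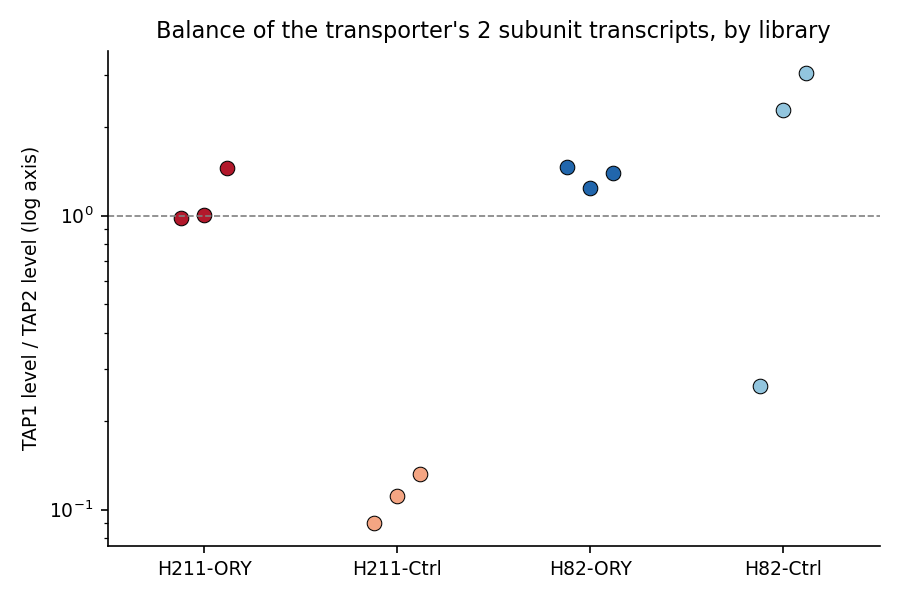
Level of TAP1 divided by that of TAP2 in each library, on a log axis, with a dashed line at equal levels. The H211-Ctrl libraries lie at 0.0899 to 0.132, below every other library, and the H82-Ctrl libraries spread from 0.263 to 3.05.

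Annotation limits how far single levels can be trusted here. GENCODE gives TAP1 456 exon bases in common with PSMB8-AS1 on the other strand, and no source used here states whether reads were counted by strand. PSMB8-AS1 averaged 6.11 in H211-ORY, 0.345 in H211-Ctrl, 2.78 in H82-ORY and 0.0334 in H82-Ctrl, low beside TAP1. TAP2 shares 2064 exon bases with AL669918.1, a protein-coding model on the same strand, which averaged 6.73 in H211-ORY, 5.39 in H211-Ctrl, 2.60 in H82-ORY and 0.171 in H82-Ctrl. How reads were divided between these models is not known.

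Tapasin and TAPBPR transcripts also rose in both lines, less than the transporter's. TAPBP had levels of 29.4, 32.3 and 27.7 in H211-ORY, against 12.6, 13.2 and 12.01 in H211-Ctrl, and 2.29, 2.48 and 2.25 in H82-ORY, against 0.899, 0.962 and 1.06 in H82-Ctrl. None of the groups overlapped, and every H211 library was above every H82 library. The linear folds were nearly the same, 2.37-fold in H211 and 2.40-fold in H82, while the log2 fold changes of the level plus 1 were 1.18 (SE 0.076, adjusted p = 1.40e-06) and 0.76 (SE 0.076, adjusted p = 1.52e-05), since the H82 levels are close to the added 1.

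TAPBPL had levels of 6.75, 4.78 and 6.15 in H211-ORY, against 1.81, 1.88 and 3.23 in H211-Ctrl, and 1.34, 1.31 and 1.46 in H82-ORY, against 0.616, 0.521 and 0.680 in H82-Ctrl. The order of groups was that of TAP2 and TAPBP, with no overlap. The log2 fold change was 1.08 in H211 (SE 0.16, adjusted p = 0.000796, 2.56-fold) and 0.56 in H82 (SE 0.16, adjusted p = 0.0135, 2.26-fold). Without the 4 libraries that stood apart it was 0.66 in H211 with adjusted p = 0.122, and the call there was lost. That H211-Ctrl then consists of library 3, the highest of the 3 for TAPBPL. With 5 in place of 1 added to the level, the H82 call was lost at adjusted p = 0.0780. Over the 23 alternatives that tested TAPBPL, adjusted p ran from 0.000124 to 0.122 in H211 and from 0.00206 to 0.0780 in H82. TAPBPL shares 339 exon bases with VAMP1 on the other strand and 29 with CD27.

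Summed over TAP1, TAP2, TAPBP and TAPBPL, levels were 225 to 250.2 in H211-ORY, 48.5 to 52.7 in H211-Ctrl, 40.4 to 42.5 in H82-ORY and 1.99 to 2.40 in H82-Ctrl. The treated H82 cultures came close to, and stayed below, the untreated H211 cultures in this sum.

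**Figure D3:**
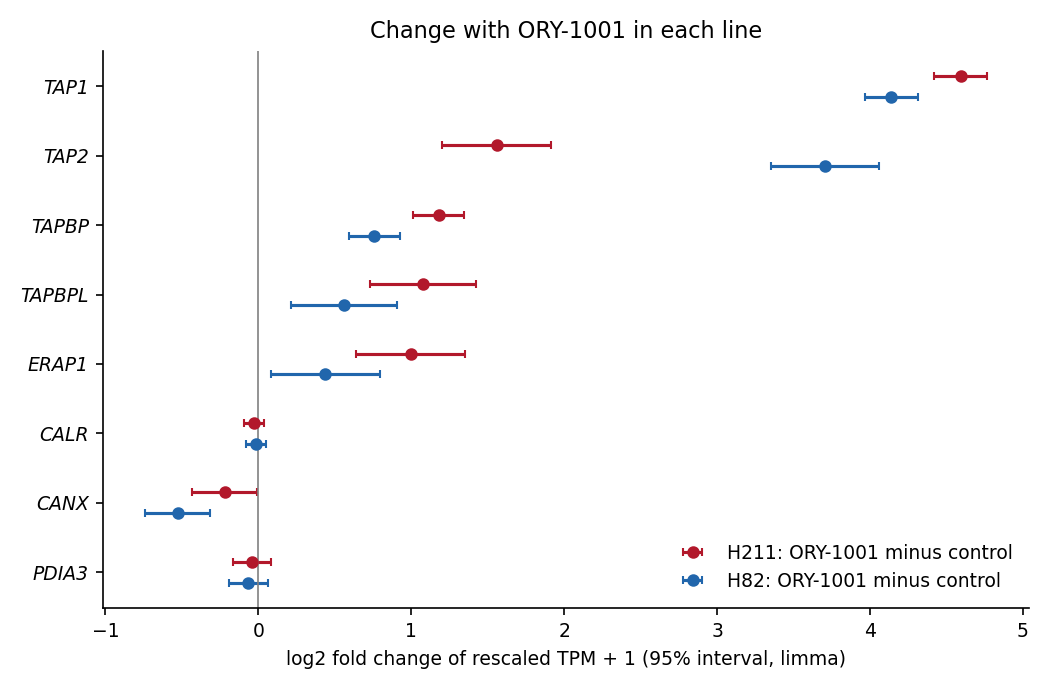
Log2 fold change of the level plus 1 with ORY-1001 in H211 and H82 for the 8 tested genes, with limma's 95% intervals. TAP2 is the member whose fold change is larger in H82 by the widest margin, and the intervals of CALR and PDIA3 include 0 in both lines.

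Of the trimming aminopeptidases, ERAP1 rose in H211 and passed the test narrowly in H82. ERAP1 had levels of 7.33, 7.35 and 6.51 in H211-ORY, against 3.60, 3.57 and 2.13 in H211-Ctrl, with no overlap (log2 fold change 1.00, SE 0.16, adjusted p = 0.00159, 2.28-fold). In H82 it had 3.58, 4.41 and 2.68 in H82-ORY, against 2.27, 2.33 and 2.38 in H82-Ctrl, again with no overlap (0.44, SE 0.16, adjusted p = 0.0485, 1.53-fold). The H82 call was lost in 14 of 24 alternatives, where adjusted p ran from 0.00579 to 0.179. It was lost without H82-ORY 1 or 2, H82-Ctrl 1, 2 or 3, H211-ORY 1, 2 or 3 or H211-Ctrl 2, the highest p being that without H82-ORY 2. H82-ORY overlapped H211-Ctrl, and H82-Ctrl lay within the range of H211-Ctrl, so the neighbours below H211-ORY in the order of ERAP1 levels were not parted. ERAP1 shares 299 exon bases with CAST, on the other strand, at means of 43.9 in H211-ORY, 42.6 in H211-Ctrl, 29.3 in H82-ORY and 27.4 in H82-Ctrl.

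ERAP2 had levels under 1 in every library: 0.536, 0.653 and 0.782 in H211-ORY, 0.403, 0.202 and 0.252 in H211-Ctrl, 0.0428, 0.161 and 0.108 in H82-ORY, and 0.0282, 0.118 and 0.0151 in H82-Ctrl. The H211 groups did not overlap and the H82 groups did. It entered a fit only when the filter was lowered to a value above 0 in 1 library (32093 genes), where the log2 fold change was 0.37 with adjusted p = 0.0182 in H211 and 0.07 with adjusted p = 0.684 in H82.

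The chaperones were the most abundant members, and of these only CANX was called with the drug, in H82. CALR had levels of 605, 582 and 587 in H211-ORY, against 609, 599 and 603 in H211-Ctrl, and 816, 782 and 815 in H82-ORY, against 810.3, 811 and 820.0 in H82-Ctrl. Treated and control libraries overlapped in both lines. The 95% interval of the log2 fold change was -0.10 to 0.04 in H211 (adjusted p = 0.552) and -0.08 to 0.05 in H82 (adjusted p = 0.708). In H82, quantile normalization gave a log2 fold change of -0.09 that was called (adjusted p = 0.0265), and the other alternatives gave adjusted p up to 0.984 and no call.

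PDIA3 had levels of 152, 140.0 and 144 in H211-ORY, against 156, 143 and 148 in H211-Ctrl, and 266, 249 and 272 in H82-ORY, against 258, 297 and 269 in H82-Ctrl. Here too the groups of a line overlapped. The intervals were -0.17 to 0.09 in H211 (adjusted p = 0.687) and -0.19 to 0.06 in H82 (adjusted p = 0.401), and PDIA3 was called in neither line under any of the 24 alternatives. GENCODE gives it 627 exon bases in common with ELL3 on the other strand.

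CANX was the member that fell. It had levels of 204, 232 and 236 in H82-ORY, against 324, 343 and 300.5 in H82-Ctrl, with no overlap, a fall of 30.7% in the mean (log2 fold change -0.53, SE 0.096, adjusted p = 0.00101). In H211 it had 147, 133 and 112 in H211-ORY, against 158, 156 and 140.3 in H211-Ctrl, where H211-ORY library 1 lay inside the range of the controls (log2 fold change -0.22, 95% interval -0.43 to -0.01, adjusted p = 0.140). The fall in H82 was called under all 24 alternatives. CANX divided by CALR was 0.249, 0.296 and 0.289 in H82-ORY, against 0.400, 0.423 and 0.366 in H82-Ctrl. That ratio had no overlap between the H82 groups, with p = 0.1 by the exact permutation test, the smallest it can give (0.133 after adjustment). The 3 chaperones summed to 842 to 904 in H211-ORY, 892 to 923 in H211-Ctrl, 1263 to 1322 in H82-ORY and 1390 to 1451 in H82-Ctrl.

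Without the drug, the lines differed in opposite directions for the transporter group and the chaperones. In H211-Ctrl against H82-Ctrl, 4 of the 8 members were called higher and 3 lower, where 39.7% of all genes were called higher and 40.8% lower, so that counts of this size are close to the background. TAP2 was 98.1-fold higher in H211-Ctrl, TAPBP 12.9-fold, TAP1 11.8-fold and TAPBPL 3.81-fold (adjusted p = 1.74e-11 to 8.16e-05). CANX was 2.13-fold lower in H211-Ctrl, PDIA3 1.84-fold and CALR 1.35-fold (adjusted p = 3.77e-08 to 5.69e-07). ERAP1 was not called (log2 fold change 0.28, adjusted p = 0.131). Without H211-Ctrl library 3 it was called at adjusted p = 0.0107, and over 24 alternatives its adjusted p ran from 0.0107 to 0.592.

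Between the treated cultures, 5 of the 8 members were higher in H211-ORY than in H82-ORY and 3 were lower, with 39.7% of all genes called higher and 40.6% lower. TAPBP was 12.7-fold higher in H211-ORY, close to its fold between the controls. TAP2 was 6.01-fold and TAP1 4.92-fold higher, TAPBPL 4.31-fold and ERAP1 1.99-fold (adjusted p = 6.97e-12 to 0.000501). CANX was 1.71-fold, PDIA3 1.81-fold and CALR 1.36-fold lower in H211-ORY (adjusted p = 5.22e-08 to 1.19e-05). These comparisons share libraries with those of the drug and are not separate evidence.

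The difference between the drug effects of the lines was called for TAP2, TAP1 and TAPBP, and only for TAP2 under every alternative. For this difference, H211 minus H82, 2 of the 8 members were called higher and 1 lower, against 17.8% of all genes called higher and 14.3% lower. The log2 difference for TAP2 was -2.15 (SE 0.23, adjusted p = 5.17e-05), a smaller rise in H211, and it was called with the same sign under all 23 alternatives, at -3.93 to -0.53. The log2 difference for TAP1 was 0.45 (SE 0.11, adjusted p = 0.00940), but it turned to -0.92 (adjusted p = 0.0110) when 0.1 was added to the levels in place of 1, so its direction depends on how levels under 1 are treated. Without the 4 libraries that stood apart it was 0.30 with adjusted p = 0.208, and over all 23 alternatives adjusted p ran from 1e-07 to 0.208. The difference for TAPBP was 0.42 (SE 0.11, adjusted p = 0.0117), 0.05 (adjusted p = 0.821) with 0.1 added and 0.51 (adjusted p = 0.0674) without the 4 libraries, in a range of adjusted p from 4.05e-05 to 0.821. TAPBPL, ERAP1 and CANX had differences of 0.51, 0.56 and 0.31 (adjusted p = 0.102, 0.0871 and 0.107). Each was called in 2 or 3 alternatives: TAPBPL without H211-Ctrl 3 (0.0113), ERAP1 without H82-ORY 2 (0.0417) and CANX without H211-ORY 3 (0.0176), over ranges of adjusted p of 0.0113 to 0.749, 0.0213 to 0.181 and 0.0176 to 0.232.

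The class I chains, the immunoproteasome and the proteasome activator supply the peptides and the molecules to be loaded. Of the 11 tested of 12 listed genes, 10 were called higher in H211 (median log2 fold change 2.52) and 8 in H82 (median 1.66). This compares with 8.95% of all genes in H211 and 19.1% in H82. In limma's test 0 were lower in either line, also at an unadjusted p under 0.05. Shares of all genes called lower were 9.61% in H211 and 23.9% in H82. The genes not called are named here after their values were seen. In H211 this was HLA-F (log2 fold change -0.23, adjusted p = 0.620). In H82 they were HLA-E (0.54, adjusted p = 0.120) and the activator subunits PSME1 (0.16, adjusted p = 0.0788) and PSME2 (0.09, adjusted p = 0.428). HLA-E did not overlap between H82-ORY (24.8 to 26.9) and H82-Ctrl (16.2 to 18.3), and neither did PSME1. The fit shares its spread over the 4 groups, and HLA-E was 5.56 in H211-Ctrl library 2 against 1.67 and 1.81 in libraries 1 and 3. With only the H82 groups fitted, 9 of the list were called higher in H82. Immunoproteasome subunit PSMB9, whose GENCODE span covers TAP1, averaged 253 ± 6.93 in H211-ORY and 1.37 ± 0.750 in H211-Ctrl, and 11.3 ± 0.973 in H82-ORY and 0.548 ± 0.560 in H82-Ctrl (SD, n = 3 each). PSMB8 averaged 158 in H211-ORY and 2.12 in H211-Ctrl, and 17.0 in H82-ORY and 0.393 in H82-Ctrl. Log2 fold changes in H211 and H82 were 6.79 and 3.05 for PSMB9 and 5.68 and 3.70 for PSMB8 (adjusted p = 5.36e-11 to 3.16e-06).

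Of the class I chains, HLA-C was 19.5-fold higher with the drug in H211 and 10.9-fold in H82, and B2M, the light chain, 4.83-fold and 5.0-fold. HLA-B was 14.9-fold higher in H211 and 23.4-fold in H82, with H211-Ctrl at 6.07 ± 8.72 (SD, n = 3), a spread set by library 2, the one highest in myeloid markers. These chains had adjusted p of 2.13e-09 to 0.00148, and HLA genes share sequence, so their separate levels are uncertain. Against PSMB9 the ratio of TAP1 was 0.406, 0.411 and 0.453 in H211-ORY and 4.91, 1.60 and 2.91 in H211-Ctrl. It was 2.05, 1.72 and 2.03 in H82-ORY and 1.69, 0.296 and 0.998 in H82-Ctrl. PSMB9 thus overtook TAP1 in treated H211 cultures and not in treated H82 cultures. No ratio overlapped between treated and control libraries of a line, and each exact permutation p was 0.1, the smallest possible (0.133 after adjustment). In H82 the margin was small, 1.72 in the lowest treated library against 1.69 in the highest control. The H82-Ctrl ratios rested on TAP1 levels under 1.

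Among 14 regulators of class I transcription, 5 were higher and 0 lower in H211 by limma, also 0 at an unadjusted p under 0.05. The shares over all genes there were 8.95% higher and 9.61% lower. In H82, 3 regulators were higher and 3 lower, against 19.1% and 23.9% of all genes, so the H82 counts are close to the background. NLRC5, the transactivator of class I genes, averaged 21.1 in H211-ORY and 1.21 in H211-Ctrl, and 5.67 in H82-ORY and 0.112 in H82-Ctrl (log2 fold changes 3.33 and 2.58, adjusted p = 6.58e-09 and 4.17e-08). IRF1, an interferon regulatory factor, was 3.51-fold higher in H211 and 2.36-fold in H82 (adjusted p = 9.12e-07 and 0.000105). IRF9, a subunit of the interferon-activated ISGF3 complex, was 4.99-fold higher in H211 (adjusted p = 8.01e-05) and not called in H82 (log2 fold change 0.19, adjusted p = 0.541). NFYA, which binds CCAAT, was lower in H82 (log2 fold change -0.44, adjusted p = 1.01e-05) and not called in H211 (-0.06, adjusted p = 0.361).

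Other peptide-trimming peptidases and the transporter's relative ABCB9 mostly did not pass the test. Of 8 tested of 9 listed, 1 was higher and 1 lower in H211, and 1 was higher and 7 were not called in H82. Median log2 fold changes were 0.002 and -0.04. Among all genes, 8.95% were called higher and 9.61% lower in H211, and 19.1% higher and 23.9% lower in H82. The H211 counts are close to that background. LAP3, a leucine aminopeptidase, averaged 112 in H211-ORY and 99.5 in H211-Ctrl (adjusted p = 0.0191). That call was lost with each library rescaled to the same total, and without H211-ORY 1, H211-ORY 2 or H211-Ctrl 2. BLMH, bleomycin hydrolase, averaged 215 in H82-ORY and 164 in H82-Ctrl (adjusted p = 0.000125). ABCB9, a lysosomal peptide transporter, was 2.44-fold lower in H211 (log2 fold change -1.13, adjusted p = 0.00109).

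Other folding genes of the endoplasmic reticulum also fell in H82, as CANX did. Of 20 tested of 21 listed, 13 were lower and 1 higher in H82 (median log2 fold change -0.32), against 23.9% and 19.1% of all genes. In H211, 3 were lower and 2 higher (median -0.02), against 9.61% and 8.95% of all genes, so the H211 counts are close to the background. HSPA5, the chaperone BiP, averaged 147 ± 3.81 in H211-ORY and 131 ± 1.51 in H211-Ctrl, and 114 ± 3.42 in H82-ORY and 204 ± 6.0 in H82-Ctrl (SD, n = 3 each), with log2 fold changes of 0.17 and -0.84 (adjusted p = 0.00881 and 3.81e-08). SEC61A1, the channel of the endoplasmic reticulum, was 1.67-fold lower in H82 and 1.13-fold in H211. HSP90B1, the chaperone GRP94, was 1.43-fold lower in H82 (adjusted p = 1.09e-05), with adjusted p = 0.0570 in H211. CLGN, a relative of calnexin, was 1.51-fold lower in H82 and 1.36-fold in H211, and the oxidase ERO1A was 1.16-fold lower in H211 (adjusted p = 0.0384). With each library rescaled to the same total, 13 of this list were lower and 1 higher in H82. In H211, 3 were then lower and 0 higher, so the HSPA5 rise in H211 was no longer called. With replicate number as a block, 13 were lower and 1 higher in H82, and 1 was lower and 1 higher in H211.

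**Figure D4:**
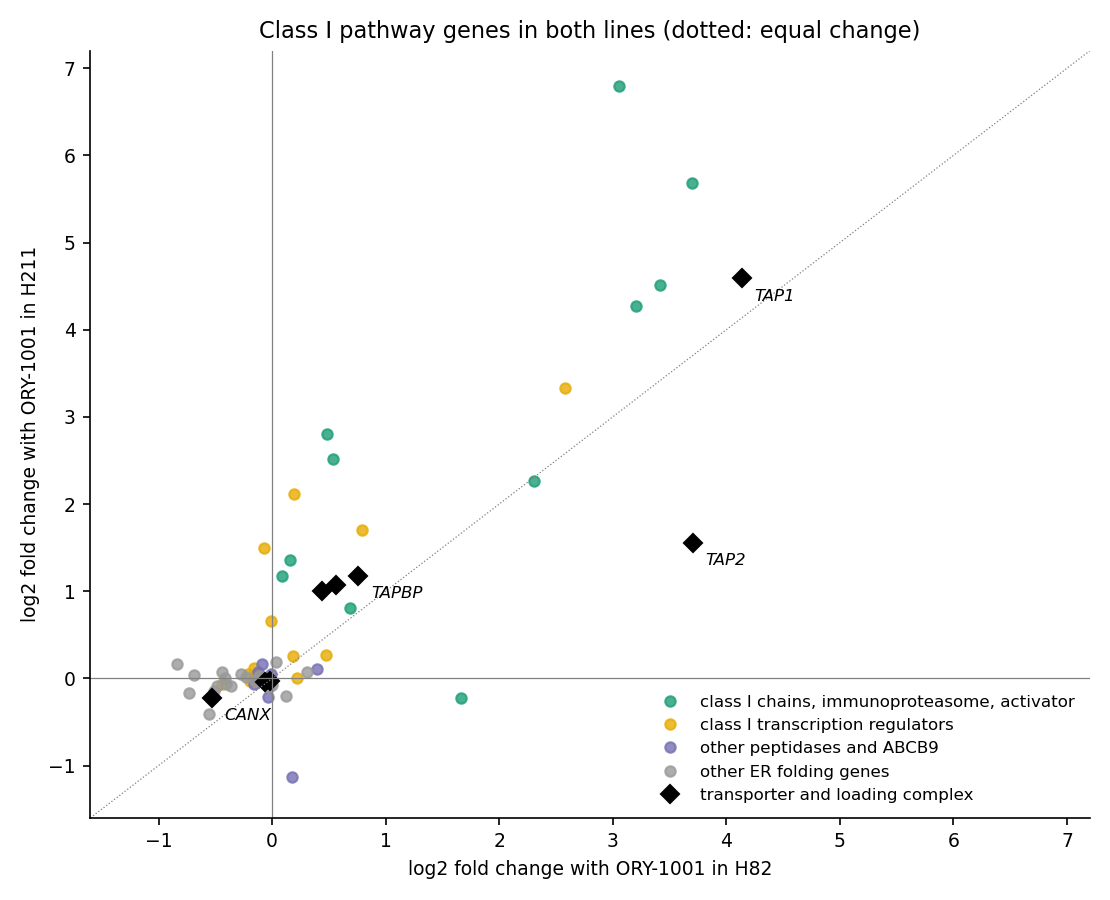
Log2 fold change of the level plus 1 with ORY-1001 in H211 (vertical) and in H82 (horizontal) for the 8 tested members (diamonds) and 4 lists of pathway genes (circles). TAP2 lies far below the dotted line of equal change, and CANX lies among the other endoplasmic reticulum folding genes, most of which are below 0 in H82.

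The genes most like a member in pattern were found by the root-mean-square difference of log2 values over the 12 libraries, each gene centred on its own mean, among 15455 others. For TAP1 these were HLA-C (0.41), PSMB8 (0.43), LGALS3BP, a secreted galectin-binding glycoprotein (0.51), NLRC5 (0.79) and HLA-B (0.85). For TAPBP they were IFIH1, the cytosolic RNA sensor MDA5 (0.22), the metallothionein MT2A (0.23), the homeobox gene NKX2-5 (0.28), RHOU (0.30) and OVOL3 (0.31). For ERAP1 they were the ubiquitin ligase gene TRIM56 (0.20), the repressor gene HEY1 (0.21), NMI (0.22), HAGHL (0.23) and HCG4P5 (0.23). TRIM56, NMI and HCG4P5 reached a level of 1 only in H211-ORY, the group highest in ERAP1, and passed the filter through it. Their likeness to ERAP1 was thus partly set by the filter and by low levels. The 12 libraries form 4 groups, so such likeness rests on few separate conditions.

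Blood cells express MHC class I genes, so the blood transcripts are set beside the members here. The erythroid markers were uneven: the gamma-globin gene HBG2 reached 53.0 in H82-ORY 3, while the beta-globin gene HBB was at most 0.237 in any library. In H211, the libraries low in myeloid markers were H211-ORY 1 and 2 and H211-Ctrl 3, with TAP1 at 106 and 102 against 3.88. H211-Ctrl 2, with a myeloid sum of 163 and the neutrophil gene S100A8 at 58.1, had TAP1 at 3.42, between the other controls. In H82 the myeloid sum was 33.1 to 44.4 in every treated library and 1.63 to 2.41 in every control, so that within H82 it cannot be told apart from the drug. Single myeloid markers in H82-ORY 3 differed from those in H82-ORY 1 and 2 in both directions. Lysozyme was lower (0.583 against 16.0 and 18.7) and MPO was higher (24.3 against 8.71 and 8.55). TAP1, TAP2 and TAPBP in H82-ORY 3 lay within or next to the range of H82-ORY 1 and 2. Of the 14 myeloid markers 0 or 1 were listed at 0 in H82-ORY, and 7 or 8 in H82-Ctrl. The sum of 10 lymphoid markers was at most 7.69 and that of 5 endothelial markers at most 1.35. Fibroblast markers summed to 64.8 to 71.2 in H211-ORY and 6.16 to 6.37 in H211-Ctrl, of which decorin (DCN) made up 61.5 to 68.1 in H211-ORY and 3.92 to 4.42 in H211-Ctrl, with the collagen gene COL1A1 at 0.915 to 1.27 in H211-ORY and 0.504 to 0.939 in H211-Ctrl. The source of these marker transcripts was not tested, and their part in the members' changes was not tested further.

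**Figure D5:**
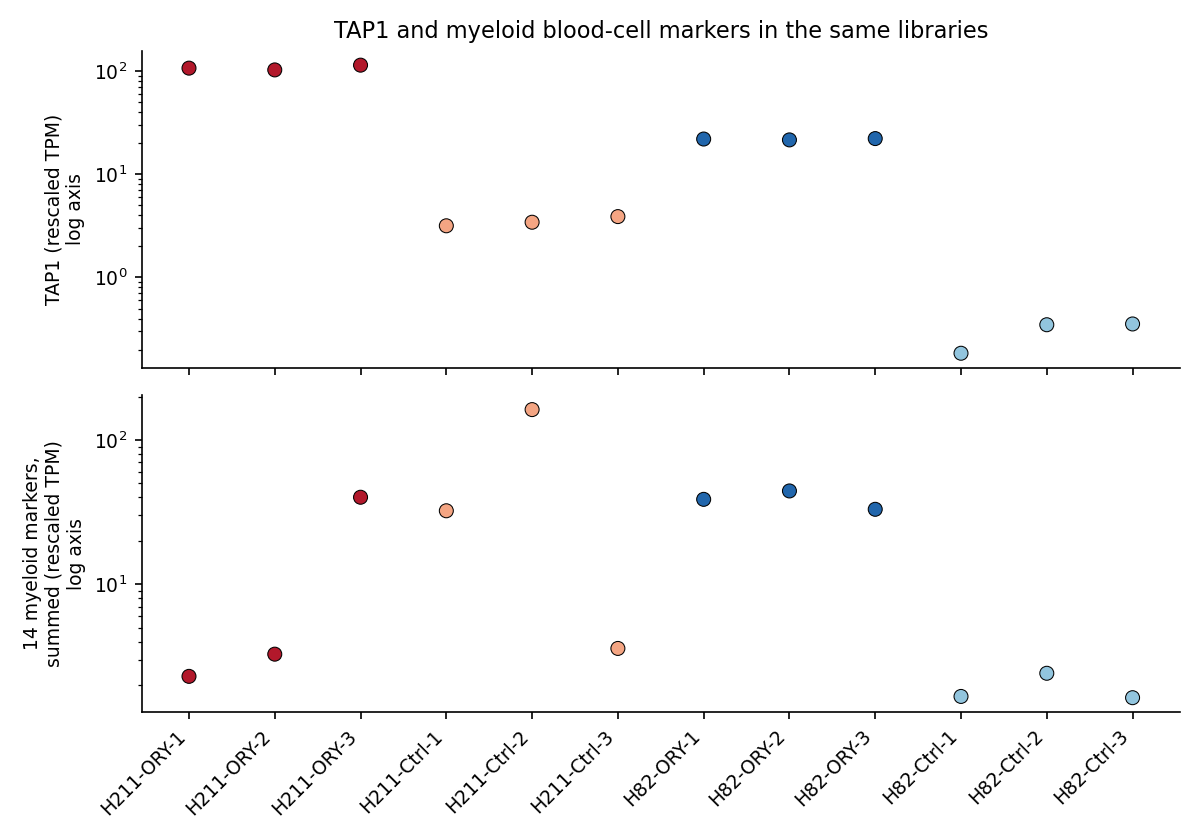
TAP1 level (top) and the summed level of 14 myeloid markers (bottom) in each of the 12 libraries, in rescaled TPM on log axes. In H211 the treated libraries are high in TAP1 whether their myeloid sum is 2.30, 3.27 or 40.1, while in H82 the treated libraries are high in both.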

How the data were processed

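Libraries were made from poly(A)-selected RNA, read as paired ends and split by index in bcl2fastq 2.17, per the labels' protocols. The tools were sleuth 0.30.0, Salmon 1.1.0, DESeq2, Subread 1.5.2 with featureCounts, STAR 2.5.2b, Trimmomatic 0.36 and R 4.0.4 on hg38, per the submitters' processing notes, which give no role or order. The deposited signal is TPM rescaled between libraries, with column totals of 967415 to 1111988. Plain TPM had been assumed when the tests were chosen, and they were kept. Depth is unknown, so no counting error is given. All 12 columns matched a sample, 27 rows carry dates in place of symbols, and 55883 symbols, with all 9 members, matched GENCODE 29.

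The log2(level + 1) values of the 12 libraries entered a single limma 3.58.1 fit (R 4.3.3) of 4 group means, with a trended eBayes prior, two-sided p-values and Benjamini-Hochberg adjustment over 15456 genes. The fit was tested on simulated data. Contrasts were ORY-1001 minus control in H211 and in H82, their difference, and H211 minus H82 in treated and in control cultures. Folds are ratios of group means and intervals cover 95%. Ratios within a library used exact permutation tests (scipy 1.17.1).

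The members, the 4 lists and the markers were chosen with earlier results of these data known. From each list the text names the called genes with the largest change, up to 2 a line with a mean of at least 5, and a set of class I and folding genes whatever their values. Some genes under this rule are not reported here. RefSeq windows were found for 8 of the 9 members, and PDIA3 was the other. Replicate numbers were not used as pairs, since same-numbered libraries did not deviate together (correlations -0.08 to 0.04). Alternatives changed the added constant, filter, scaling, variance model, weights, libraries and block.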

Additional observations from a re-analysis of the deposited data

Results flagged for a closer look

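The drug effect differed between the lines by a test of the difference itself, H211 minus H82, in 3 of the 8 tested members, where 17.8% of all genes were called higher and 14.3% lower, so the count is close to the background. The log2 difference was -2.15 for TAP2, whose levels averaged 96.0 in H211-ORY and 31.7 in H211-Ctrl, and 16.0 in H82-ORY and 0.324 in H82-Ctrl. It was 0.45 for TAP1 (-0.92 with 0.1 added to the levels, and 0.30 and not called without the 4 libraries apart in blood transcripts), which averaged 107 in H211-ORY and 3.49 in H211-Ctrl, and 21.8 in H82-ORY and 0.296 in H82-Ctrl. It was 0.42 for TAPBP (0.05 and not called with 0.1 added, and 0.51 and not called without the 4 libraries), which averaged 29.8 in H211-ORY and 12.6 in H211-Ctrl, and 2.34 in H82-ORY and 0.973 in H82-Ctrl. For TAP1 and TAPBP the linear folds do not follow the log2 difference (30.7-fold in H211 and 73.6-fold in H82 for TAP1), because the H82-Ctrl levels lie under or near the 1 that was added.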

How the results depend on the processing

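Up to 24 alternatives were run over the 8 tested members and 5 comparisons. Of their values, 915 kept their side of the threshold, and those called kept their direction. Another 19 were no longer called and 12 became called. A further 1 was called with its sign changed, the TAP1 difference between drug effects at -0.92 with 0.1 added. Values called in neither fit could change sign and still count among the 915, as did the PDIA3 difference (-0.036 to 0.068). Of the 19, 14 were ERAP1 in H82. Members called for that difference numbered 5 with 5 added, against 3. The 4 libraries apart in blood transcripts were left out as an alternative chosen after seeing the data. Without them, all genes called numbered 665 in H211, against 2868, and 3038 for the difference, against 4956, with fewer libraries in the fit. Leaving out each library in turn gave 5 members called in H211, 5 to 6 in H82, 3 to 4 for the difference, 7 to 8 in control and 8 in treated cultures. With replicate number as a block (replicate block), 5 members were called in H211, 6 in H82 and 3 for the difference, the same counts as without it, and 2204 genes in H211. TAPBPL had no value under the filter of 5. Unknown depth limits all levels under 1, chiefly TAP1, TAP2 and ERAP2 in H82-Ctrl.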
